A study of Mus musculus with 9 samples.

Results

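The families of axon guidance ligands and receptors were followed in tissue around a brain infarct in mice. They were taken as every gene of the deposited table whose symbol names a semaphorin (Sema3 to Sema7), plexin, neuropilin, ephrin, Eph receptor, Slit, Robo, netrin, netrin-G, Unc5 receptor or Dcc. This gave 71 of 55401 genes: 20 semaphorins, 11 plexins and neuropilins, 8 ephrins, 14 Eph receptors, 7 Slits and Robos, and 11 netrins and netrin receptors. Infarcts came from photothrombosis (PT), a stroke model that uses light and a dye to clot vessels of the cortex. The labels give all mice as WT, and tissue was taken at day 28. One group had a sham operation and received ultrapure water, one had PT and received ultrapure water, and one had PT followed by the drug Pushen, dosed orally for 28 days once 24 h had passed. There were 3 libraries per group. The Pushen libraries carry doses of 391, 392 and 393 mg/kg in the labels and were treated as 1 group. The labels used here state no strain, age or sex, and do not say that each library was a separate animal. The p-values therefore rest on the spread from library to library, which may be technical.

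Axon guidance proteins steer growing axons in development and remain in the adult brain, where they act at synapses, on glia and on vessels. Semaphorins signal through plexins, with neuropilins as co-receptors for the secreted class 3 members. Ephrins are membrane-bound ligands of the Eph receptor tyrosine kinases, Slits bind Robo receptors, and netrins bind Dcc and the Unc5 receptors. Several of these proteins are known as repellents of axons, and some are also made by cells of scar, meninges and vessels.

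Sequencing depth lay between 57437342 and 75100133 counts per library. Levels are given as FPKM, which is scaled to gene length and library size, so that genes can be set side by side. Cell type markers differed between the groups. Of 12 neuronal markers 9 fell in PT against sham and 0 rose, and their summed level was 1305 to 1467 FPKM in sham, 882 to 1124 in PT and 984 to 1201 with Pushen. All 10 markers of fibroblasts and meninges rose (17.0 to 18.7 FPKM summed in sham, 105 to 160 in PT, 58.8 to 146 with Pushen). Of 10 markers each, microglia and macrophages rose in 8 and endothelium in 8, and pericyte and smooth muscle markers rose in 5 of 8. Astrocyte markers rose in 8 of 9 and oligodendrocyte markers in 6 of 8. Of 10 striatal neuron markers 4 rose in PT, and all 10 had positive log2 fold changes. PT library 1 stood apart in these, at 564 FPKM summed, against 136 and 75.3 in PT libraries 2 and 3. Their sums were 71.5 to 80.9 FPKM in sham and 80.1 to 107 with Pushen. PT library 1 and Pushen library 2 stood apart in choroid plexus markers, at 554 and 636 FPKM against 24.4 to 153 in the other 4 infarct libraries and 3.86 to 19.1 in sham. Of 8 tested choroid plexus markers 3 rose in PT, and for all 8 the PT libraries lay fully above sham. Ependymal markers rose in 7 of 7, oligodendrocyte progenitor markers in 6 of 7 and markers of T, NK and B cells in all 4 tested of 8. Of 8 photoreceptor markers 0 passed the expression filter (0.45 to 0.73 FPKM summed), although the labels' extraction protocol speaks of retinas. No marker was at 0 in every library. The part of these differences in the guidance gene results was not tested, and in bulk tissue fewer cells of a type and less RNA per cell cannot be told apart.

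**Figure D1:**
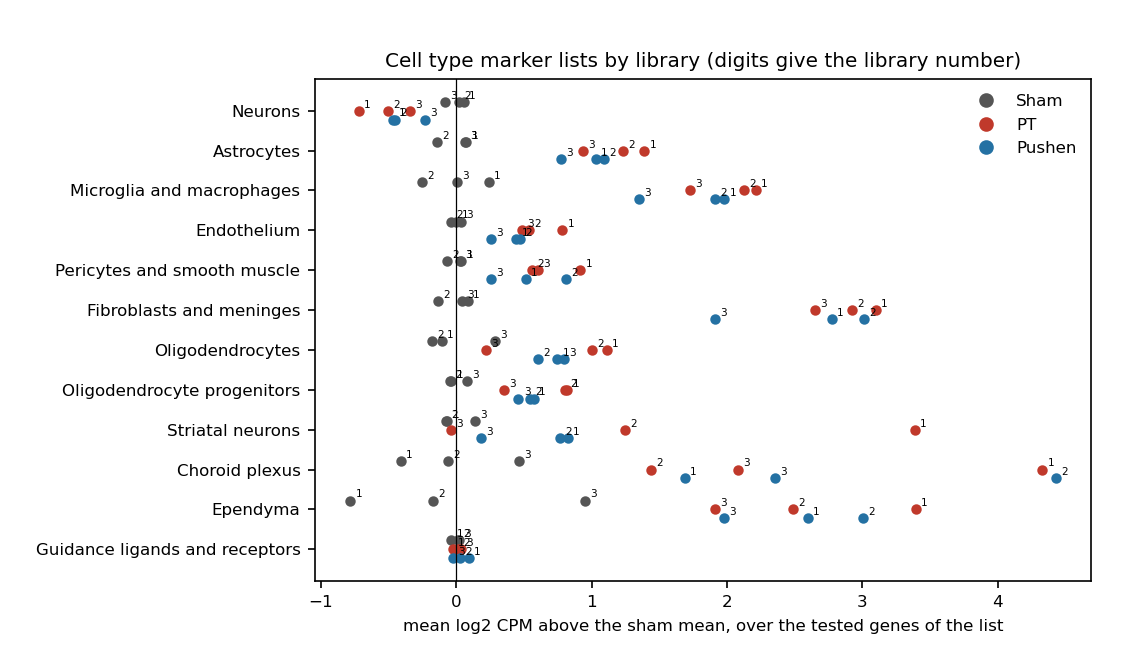
Mean log2 CPM above the sham mean (x axis) over the tested genes of each cell type marker list (y axis), with 1 point per library, coloured by group and numbered by library. PT library 1 lies far from the other PT libraries in striatal neuron markers, while the guidance ligands and receptors as a list lie near 0 in every library.

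Nearly every guidance gene was detected in this tissue. Of the 71 genes, 67 averaged 0.5 FPKM or more across the 9 libraries and were tested, and Efna4, Epha1, Epha2 and Epha3 did not. In sham tissue the highest was Sema7a, a membrane-anchored semaphorin that binds Plxnc1 and integrins, at 74.7 ± 3.31 FPKM (SD, n = 3). Ephb6, an Eph receptor without kinase activity, followed at 47.0 ± 2.24 FPKM and the transmembrane Sema6b at 37.4 ± 3.92 FPKM. These 3 did not overlap in any sham library. The netrin receptor Unc5a stood at 28.3 ± 2.93 FPKM. Epha4, Efnb3 and Efna3 came next, at 22.7 ± 1.45, 21.4 ± 3.09 and 21.2 ± 2.04 FPKM, and did not differ beyond their spread. The lowest tested genes in sham were Sema3d at 0.780 ± 0.061 FPKM and Sema3b at 0.443 ± 0.091 FPKM.

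The first comparison, PT against sham, asks which guidance genes differed around the infarct at day 28. Genes were counted as changed at an adjusted p under 0.05 in edgeR's quasi-likelihood test, adjusted by the Benjamini-Hochberg method over all 16740 tested genes. Of the 67 tested guidance genes 14 rose, 12 fell and 41 did not pass. The share that rose was 20.9%, against 19.1% of all tested genes, and the share that fell was 17.9%, against 11.8% of all tested genes. Their median log2 fold change was -0.09, against -0.0029 over all tested genes. In sham, genes that rose had a median of 2.15 FPKM (0.443 to 9.85), those that fell 9.87 FPKM (1.14 to 74.7) and those that did not pass 3.69 FPKM (0.78 to 37.4), so the ranges overlapped. Libraries of PT lay fully above sham in 16 genes and fully below in 18, or 23.9% and 26.9%, against 29.3% and 18.6% of all tested genes. Without sham library 1 or 2, 8 and 9 rose, and without sham library 2, sham library 3 or PT library 1, 7 fell in each case. Without both PT library 1 and Pushen library 2, 9 rose and 8 fell, and the calls of Efna3, Epha4, Ephb2, Ntn1, Plxnb3, Robo4, Sema4b, Sema4g and Sema7a were lost (adjusted p between 0.0538 and 0.114). After quantile normalization, which moved the median of all genes to -0.14, 9 rose and 14 fell. The calls of Efna1, Nrp1, Ntn1, Robo4, Sema4b and Sema7a were lost there, and Dcc, Epha5 and Ntn3 passed. Over all 16740 tested genes, quantile normalization gave 2508 that rose and 3480 that fell, against 3202 and 1974 in edgeR's test. How the shares of guidance genes stood to those of all genes therefore depended on the scaling.

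**Figure D2:**
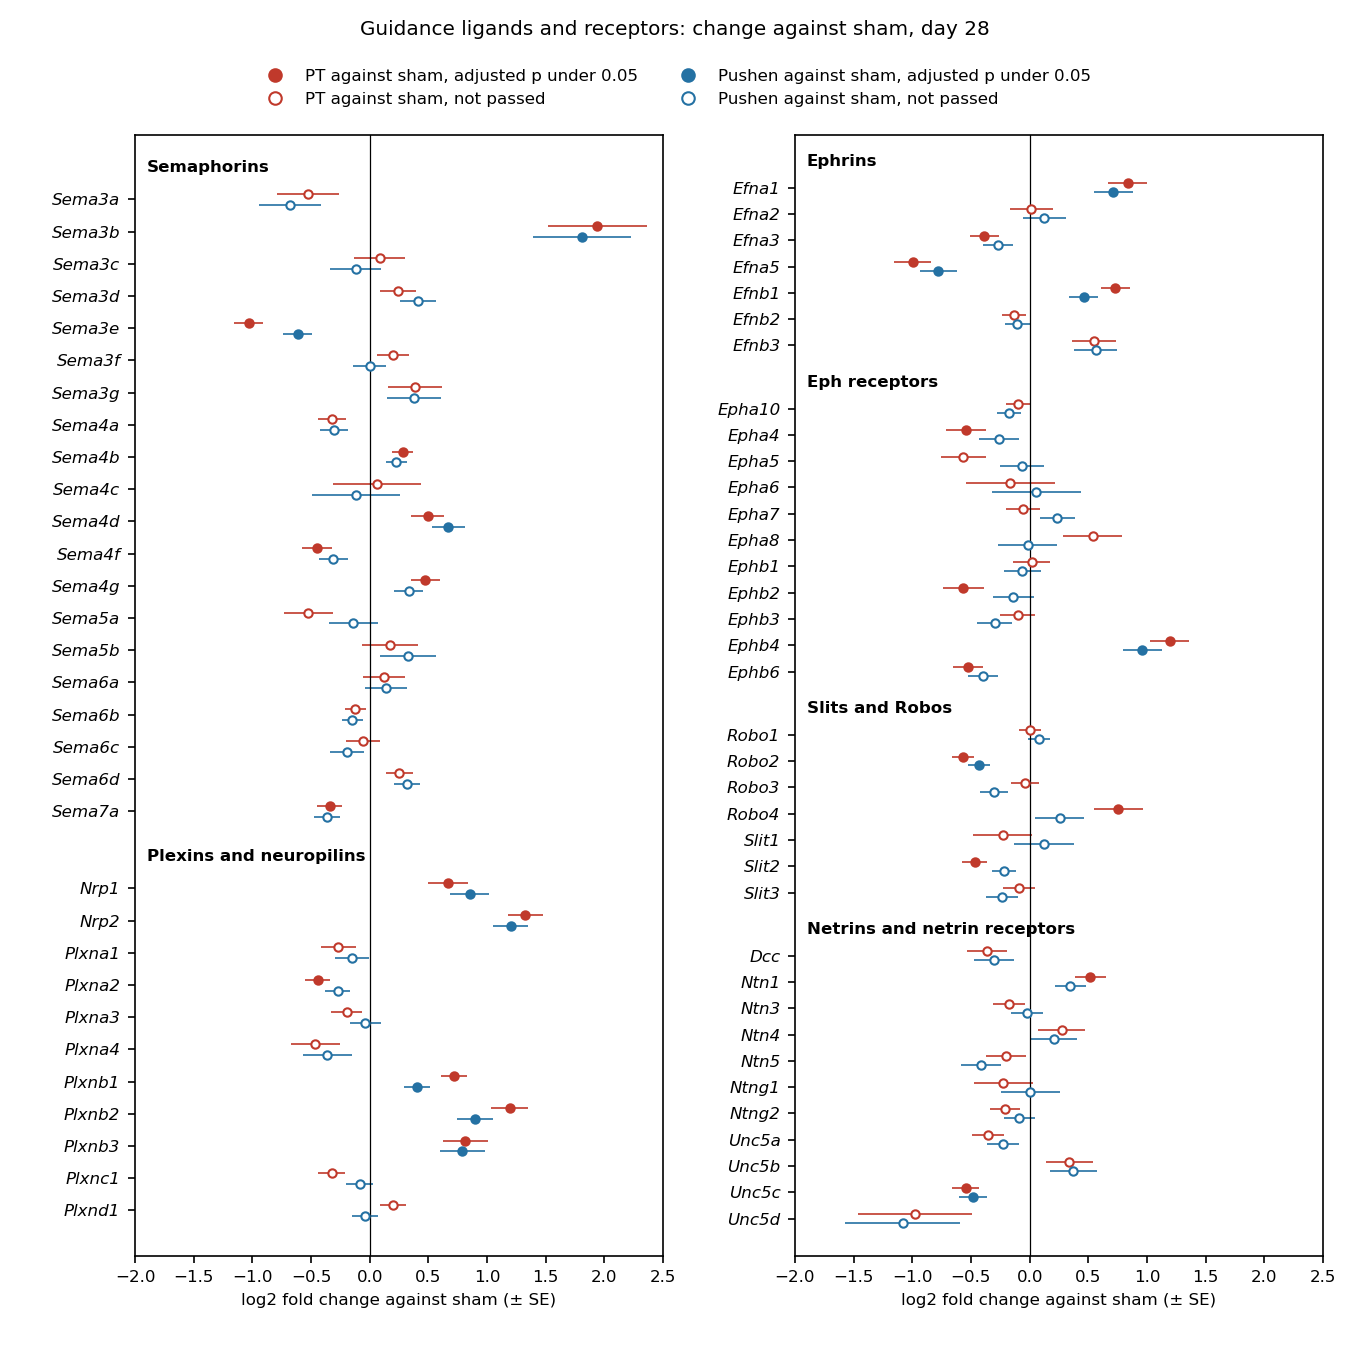
Log2 fold change against sham (x axis, ± SE) of the 67 tested guidance genes, ordered by family, for PT (red) and Pushen (blue). Filled points passed the test at an adjusted p under 0.05. Sema3b, Nrp2, Plxnb2 and Ephb4 lie at the right for PT and Sema3e at the left, and both comparisons share the sham libraries.

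Among the semaphorins, the ligand family, 4 of 20 rose and 3 fell in PT. These are 20% and 15%, near the 19.1% and 11.8% of all tested genes. Families are small, so the shares given for each rest on few genes. Sema3b, a secreted class 3 semaphorin, stood at 0.43, 0.36 and 0.54 FPKM in the sham libraries, 2.64, 1.76 and 0.93 in the PT libraries and 1.38, 2.48 and 1.03 in the Pushen libraries. Sham lay below all infarct libraries, which spread widely within both infarct groups. The fitted rise in PT was 3.83-fold, with a log2 fold change of 1.94 ± 0.42 (SE) and an edgeR adjusted p of 0.00934. The sham mean of Sema3b, 0.443 FPKM, lay below the filter of 0.5 FPKM over all libraries. It was tested only because its infarct libraries were higher, so the filter favoured a rise against sham for this gene. PT library 1 and Pushen library 2, which were highest for Sema3b, were also highest for choroid plexus markers. They were highest for fibroblast, pericyte and ependymal markers as well. Choroid plexus markers were above sham in the other infarct libraries too. Without PT library 1 and Pushen library 2 the Sema3b log2 fold change was 1.54 (edgeR adjusted p = 0.0158). Sema3e, a secreted semaphorin that binds Plxnd1 directly, moved the other way. It stood at 3.40, 3.36 and 2.87 FPKM in sham, 1.54, 1.56 and 1.80 in PT and 2.48, 1.95 and 2.17 with Pushen, so that the 3 groups did not overlap. In PT it fell to 0.490 of the sham level, with a log2 fold change of -1.03 ± 0.12 (edgeR adjusted p = 0.000724). The other 5 class 3 members, Sema3a, Sema3c, Sema3d, Sema3f and Sema3g, did not pass, with log2 fold changes between -0.53 and 0.39.

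Class 4 semaphorins, which are transmembrane proteins, split in direction. Sema4d, the ligand of Plxnb1 and Plxnb2, stood at 6.58, 7.04 and 7.47 FPKM in sham, 8.80, 13.0 and 9.11 in PT and 12.4, 12.2 and 10.5 with Pushen. It rose in PT by 0.49 ± 0.14 on the log2 scale (edgeR adjusted p = 0.0288), as did Sema4g (0.47 ± 0.12, edgeR adjusted p = 0.0201) and Sema4b (0.28 ± 0.09, edgeR adjusted p = 0.0391). Sema4f stood at 10.2, 12.4 and 11.5 FPKM in sham and 7.70, 8.95 and 9.25 in PT, and fell by 0.45 on the log2 scale (SE 0.13, edgeR adjusted p = 0.0261). Sema7a, the highest guidance gene in sham, stood at 71.2, 77.8 and 75.0 FPKM in sham, 52.3, 62.5 and 69.1 in PT and 64.7, 55.8 and 61.4 with Pushen. Its fall in PT was 0.34 ± 0.11 on the log2 scale, or 0.789 of the sham level (edgeR adjusted p = 0.0430). Sema6b, the third highest guidance gene in sham, stood between 34.8 and 37.4 FPKM in PT and did not pass (-0.12 ± 0.09, edgeR adjusted p = 0.346). Sema4c did not pass either, and its infarct libraries ran from 1.91 FPKM in Pushen library 3 to 6.52 in PT library 1. The call was lost for Sema4d without PT library 2 or any of the sham libraries (adjusted p between 0.0523 and 0.0928). For Sema4g it was lost without sham library 1 or 2 or PT 1 or 2 (0.0609 to 0.0739), and for Sema4f without sham library 2 or 3 or PT 1 or 2 (0.0562 to 0.0895). For Sema4b it was lost without any PT library, sham library 1 or 3, or 1 of Pushen libraries 1 and 2 (0.0559 to 0.121), and for Sema7a without any sham library, PT 1 or 2, or 1 of Pushen libraries 1 and 3 (0.0522 to 0.118). After quantile normalization Sema4b and Sema7a also missed the threshold (log2 fold changes 0.11 and -0.20, limma adjusted p = 0.396 and 0.110).

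Of the 11 semaphorin receptors, 5 rose in PT and 1 fell (45.5% and 9.09%, against 19.1% and 11.8% of all tested genes). All 3 B-type plexins rose, and 0 of the 4 A-type plexins did. Plxnb2, a receptor of class 4 semaphorins, stood at 5.69, 6.36 and 6.48 FPKM in sham, 17.3, 14.1 and 12.6 in PT and 12.7, 14.02 and 9.44 with Pushen. All infarct libraries lay above sham, and the fitted rise in PT was 2.29-fold (log2 fold change 1.19 ± 0.16, edgeR adjusted p = 0.000952). Plxnb1, the Sema4d receptor, stood at 8.48, 10.2 and 10.9 FPKM in sham, 18.8, 16.4 and 15.2 in PT and 14.3, 14.3 and 12.3 with Pushen. Its rise in PT was 1.64-fold (0.72 ± 0.11, edgeR adjusted p = 0.00215). Plxnb3, a receptor of Sema5a, stood at 2.15, 2.29 and 2.88 FPKM in sham and 5.03, 5.21 and 3.18 in PT, a rise of 0.82 ± 0.19 on the log2 scale (edgeR adjusted p = 0.0132). PT library 3, the lowest PT library for Plxnb3, was also the lowest for oligodendrocyte markers (517 FPKM summed, against 944 and 986 in the other PT libraries). It was likewise the lowest PT library for markers of astrocytes, microglia and macrophages, endothelium, fibroblasts and oligodendrocyte progenitors, so this order singles out no cell type. The Plxnb3 call was lost without sham library 1 or 2 (adjusted p = 0.0505 and 0.0543).

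The A-type plexins, partners of the neuropilins, had log2 fold changes between -0.46 and -0.20 in PT, and 1 of 4 passed. Plxna2 stood at 10.5, 11.1 and 10.3 FPKM in sham, 6.81, 8.54 and 8.99 in PT and 9.46, 9.42 and 8.73 with Pushen. It fell in PT to 0.735 of the sham level (log2 fold change -0.44 ± 0.11, edgeR adjusted p = 0.0135), and the PT and sham libraries did not overlap. Plxna1, the highest plexin in sham, stood at 15.1 ± 1.12 FPKM there and did not pass (-0.27 ± 0.15, edgeR adjusted p = 0.200). A further gene on the opposite strand shares 10.7% of its exonic bases, and no source says if counting used strand, so its values are uncertain. Both neuropilins rose. Nrp2, a co-receptor of class 3 semaphorins and of VEGF-C, stood at 1.09, 1.34 and 1.26 FPKM in sham, 3.34, 3.31 and 3.03 in PT and 3.55, 3.12 and 2.27 with Pushen. Its rise in PT was 2.51-fold (1.33 ± 0.15, edgeR adjusted p = 0.000595). Nrp1, the co-receptor of Sema3a and of VEGF-A, stood at 1.37, 1.43 and 1.36 FPKM in sham, 2.06, 2.83 and 1.98 in PT and 2.86, 2.96 and 2.05 with Pushen, and rose 1.59-fold in PT (0.67 ± 0.17, edgeR adjusted p = 0.0170). The Nrp1 call was lost without sham library 1 or 3 (adjusted p = 0.0516 and 0.0533) and after quantile normalization, in which 1 of the 2 neuropilins, Nrp2, passed. Plxnd1 and Plxnc1, the receptors of Sema3e and Sema7a, did not pass (0.20 ± 0.11 and -0.32 ± 0.12, edgeR adjusted p = 0.197 and 0.0619).

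**Figure D3:**
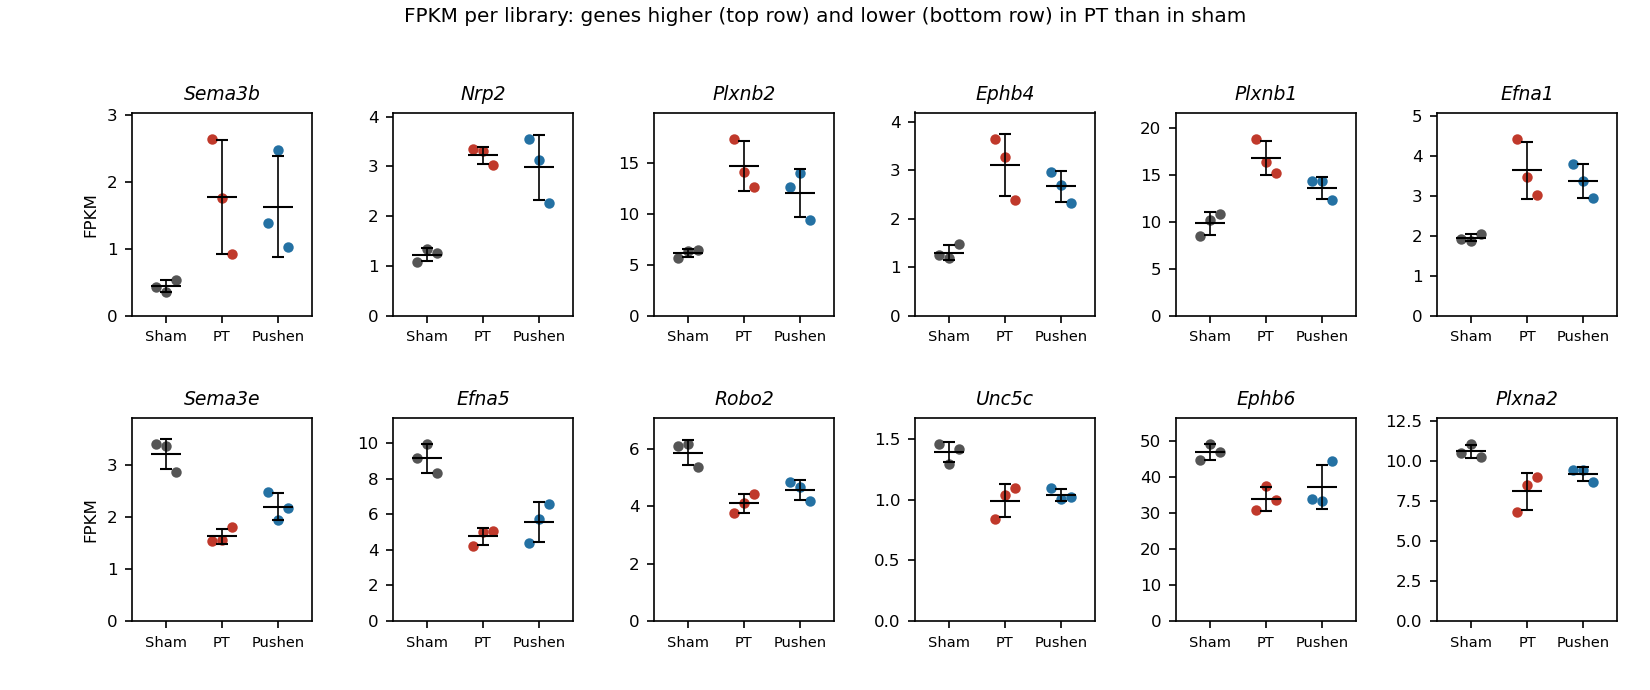
FPKM (y axes, from 0) in each library of sham, PT and Pushen for 6 guidance genes that rose (top row) and 6 that fell (bottom row) in PT against sham, with 1 point per library, a bar at the group mean and SD as whiskers. For each gene the PT points and the sham points do not overlap.

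Ephrins split by member. Of 7 tested ephrins 2 rose and 2 fell (28.6% each, against 19.1% and 11.8% of all tested genes). Efna1, a lipid-anchored A-type ephrin, stood at 1.93, 1.88 and 2.05 FPKM in sham, 4.42, 3.48 and 3.01 in PT and 3.79, 3.37 and 2.94 with Pushen. It rose 1.79-fold in PT (log2 fold change 0.84 ± 0.17, edgeR adjusted p = 0.00640). After quantile normalization its change was 0.38 and did not pass (limma adjusted p = 0.0707). Efna5, an A-type ephrin that binds EphA receptors and Ephb2, stood at 9.15, 9.93 and 8.32 FPKM in sham, 4.21, 5.01 and 5.03 in PT and 4.38, 5.75 and 6.55 with Pushen. All infarct libraries lay below sham, and the level in PT was 0.501 of that in sham (-0.998 ± 0.16, edgeR adjusted p = 0.00213). Efna3 stood at 18.8, 22.2 and 22.5 FPKM in sham and 16.0, 16.4 and 18.1 in PT, a fall of 0.39 ± 0.12 on the log2 scale (edgeR adjusted p = 0.0441). Its call was lost without any sham library, PT 1 or 2, or Pushen library 1 (adjusted p between 0.0540 and 0.124), and a gene on the opposite strand shares 14.1% of its exonic bases. Efnb1, a transmembrane ephrin, stood at 2.73, 3.84 and 3.63 FPKM in sham, 5.81, 5.82 and 5.95 in PT and 4.81, 4.74 and 5.13 with Pushen. The 3 PT libraries were nearly equal, and the rise was 1.66-fold (0.73 ± 0.12, edgeR adjusted p = 0.00305). Efnb3, a ligand linked to myelin and to axons at the midline, stood at 17.9, 22.3 and 23.9 FPKM in sham, 40.0, 34.9 and 22.8 in PT and 33.6, 30.9 and 34.5 with Pushen. PT library 3 overlapped with sham, and Efnb3 did not pass (0.55 ± 0.19, edgeR adjusted p = 0.0522; DESeq2 adjusted p = 0.0203). Efnb2, the ligand of Ephb4, did not pass (-0.13 ± 0.10, edgeR adjusted p = 0.363).

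Of 11 tested Eph receptors 1 rose and 3 fell (9.09% and 27.3%, against 19.1% and 11.8% of all tested genes). Ephb4, a receptor known from venous endothelium, stood at 1.25, 1.19 and 1.47 FPKM in sham, 3.64, 3.28 and 2.39 in PT and 2.96, 2.70 and 2.33 with Pushen. Its rise in PT was 2.29-fold (log2 fold change 1.19 ± 0.17, edgeR adjusted p = 0.00138), with all infarct libraries above sham. Ephb6 stood at 44.7, 49.1 and 47.1 FPKM in sham, 30.8, 37.4 and 33.6 in PT and 33.9, 33.5 and 44.3 with Pushen. It fell in PT to 0.696 of the sham level (-0.52 ± 0.13, edgeR adjusted p = 0.0142). Epha4, which binds ephrins of both types, stood at 23.6, 23.4 and 21.0 FPKM in sham, 12.6, 15.3 and 20.6 in PT and 22.3, 18.5 and 18.7 with Pushen, and fell to 0.687 of sham in PT (-0.54 ± 0.17, edgeR adjusted p = 0.0390). PT library 3 was only just below the lowest sham library. Ephb2 stood at 1.56, 2.04 and 1.84 FPKM in sham, 1.01, 1.30 and 1.49 in PT and 2.07, 1.5 and 1.6 with Pushen (-0.57 ± 0.17, edgeR adjusted p = 0.0369). The calls of Epha4 and Ephb2 were lost without any sham library or PT 1 or 2, and that of Epha4 also without Pushen library 2 (adjusted p between 0.0517 and 0.112 for Epha4 and between 0.0505 and 0.117 for Ephb2). Epha5 missed the threshold in PT (-0.56 ± 0.19, edgeR adjusted p = 0.0513; DESeq2 adjusted p = 0.0178). Epha8 did not pass and stood at 3.65 FPKM in PT library 1, against 1.44 to 2 in the other 8. That library was high in striatal markers and was also the highest of PT in most other marker lists.

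Of the Slits, secreted repellents, 0 of 3 rose and 1 fell, and of their 4 Robo receptors 1 rose and 1 fell. Slits and Robos together rose in 14.3% and fell in 28.6%, against 19.1% and 11.8% of all tested genes. Slit2 stood at 1.18, 1.19 and 1.06 FPKM in sham, 0.75, 0.87 and 0.94 in PT and 0.98, 1.08 and 1.02 with Pushen. It fell in PT to 0.722 of the sham level (log2 fold change -0.47 ± 0.10, edgeR adjusted p = 0.00998). Slit1, the highest Slit, ranged from 6.49 to 12.3 FPKM in PT and did not pass (-0.23 ± 0.25, edgeR adjusted p = 0.521). Robo2, a neuronal Slit receptor, stood at 6.08, 6.16 and 5.35 FPKM in sham, 3.77, 4.11 and 4.43 in PT and 4.83, 4.67 and 4.19 with Pushen. All infarct libraries lay below sham, and the level in PT was 0.673 of sham (-0.57 ± 0.09, edgeR adjusted p = 0.00268). Robo4, the Robo of endothelium, stood at 1.46, 1.60 and 1.81 FPKM in sham, 3.93, 2.17 and 2.45 in PT and 2.17, 2.05 and 1.87 with Pushen. It rose 1.69-fold in PT (0.76 ± 0.21, edgeR adjusted p = 0.0243), and the call was lost without sham library 1 or 2 (adjusted p between 0.0735 and 0.0847) and after quantile normalization (limma adjusted p = 0.104). PT library 1 was the highest for Robo4 and for endothelial markers (110 FPKM summed, against 80.7 and 92.9 in the other PT libraries), and without it the log2 fold change was 0.46 (edgeR adjusted p = 0.0380). The same library was also the highest of PT for markers of astrocytes, microglia and macrophages, pericytes and fibroblasts. Robo3, the highest Robo in sham at 7.87 ± 0.35 FPKM, did not pass (-0.04 ± 0.12, edgeR adjusted p = 0.841).

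Of 11 netrins and netrin receptors 1 rose and 1 fell (9.09% each, against 19.1% and 11.8% of all tested genes). Ntn1, the founding netrin, stood at 1.89, 1.63 and 1.51 FPKM in sham, 2.86, 2.37 and 2.29 in PT and 2.42, 2.24 and 2.05 with Pushen. It rose 1.43-fold in PT (log2 fold change 0.52 ± 0.13, edgeR adjusted p = 0.0186). The call was lost without PT library 1, sham library 2 or sham library 3 (adjusted p between 0.0556 and 0.0650) and after quantile normalization (limma adjusted p = 0.0968). Unc5c, a receptor for netrin repulsion, stood at 1.46, 1.30 and 1.42 FPKM in sham, 0.84, 1.04 and 1.10 in PT and 1.10, 1.01 and 1.02 with Pushen. All infarct libraries lay below sham, and the level in PT was 0.685 of sham (-0.55 ± 0.12, edgeR adjusted p = 0.00844). Unc5a, the highest of these genes, stood at 25.0, 30.7 and 29.1 FPKM in sham and 19.6, 22.8 and 26.4 in PT, and did not pass (-0.36 ± 0.13, edgeR adjusted p = 0.0719; DESeq2 adjusted p = 0.0374). Unc5d, whose ligands include Flrt proteins, stood at 4.87, 5.18 and 4.69 FPKM in sham, 1.62, 2.63 and 3.54 in PT and 3.22, 3.37 and 0.73 with Pushen. All infarct libraries lay below sham, but they spread widely, and Unc5d did not pass (-0.98 ± 0.49, edgeR adjusted p = 0.160). Dcc, the attractive netrin receptor, did not pass (-0.36 ± 0.17, edgeR adjusted p = 0.141; limma after quantile normalization, adjusted p = 0.0427). Ntn5 stood at 5.17 ± 0.79 FPKM in sham and did not pass (-0.20 ± 0.17, edgeR adjusted p = 0.394), and a gene on the opposite strand shares 23.4% of its exonic bases. The synaptic netrin-G genes Ntng1 and Ntng2 did not pass (-0.22 ± 0.25 and -0.21 ± 0.13), and a gene on the same strand shares 13.98% of the exonic bases of Ntng2, whose values are uncertain.

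The 4 genes below the filter were low in every library. Efna4 had 42 counts over the sham libraries (0 in sham library 1), 200 over the PT libraries and 175 over the Pushen libraries. A gene on the opposite strand shares 10.5% of the exonic bases of Efna4. Epha1 had 48, 134 and 94 counts. Epha2 averaged 0.333, 0.570 and 0.493 FPKM in sham, PT and Pushen, and Epha3 0.437, 0.433 and 0.533. Fitted without a filter, none of the 4 passed in PT against sham.

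Genes that neighbour each other in the genome did not always move alike. By coordinates of the deposited table, which match GRCm38 for 63 of the 71 genes, Efna1 (chr3:89271733-89281142) lies 32.8 kb from Efna3 (chr3:89313899-89322965). Efna1 rose and Efna3 fell in PT. Robo4 (chr9:37401897-37415115) lies 0.554 kb from Robo3 (chr9:37415669-37433246), and Robo4 rose while Robo3 did not pass. Sema3b (chr9:107597674-107609229) lies 72.3 kb from Sema3f (chr9:107681500-107710475), which did not pass (0.20 ± 0.14, edgeR adjusted p = 0.295). Nrp2 lies on the plus strand (chr1:62703285-62818695), Plxnb2 on the minus strand (chr15:89155549-89180788), Ephb4 on the plus strand (chr5:137350109-137378669) and Sema3e on the plus strand (chr5:14025276-14256689).

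The genes that changed by at least 2-fold were Sema3b, Nrp2, Plxnb2 and Ephb4, which rose, and Sema3e, which fell. At this size 5.97% of the tested guidance genes rose and 1.49% fell, against 9.85% and 0.538% of all tested genes. RefSeq promoters (GRCm38.p6, 250 bases before to 50 after the start) of Nrp2, Plxnb2, Ephb4 and Sema3e are shown so that their start regions can be compared, for Plxnb2 the start farther upstream. Sema3b had no match in the promoter table. Capitals mark GC boxes (GGGCGG) and CCAAT boxes (CCAAT) on either strand, and each is written 5′ to 3′ on the gene's strand.
Ephb4 (chr5:137349859-137350158, plus strand): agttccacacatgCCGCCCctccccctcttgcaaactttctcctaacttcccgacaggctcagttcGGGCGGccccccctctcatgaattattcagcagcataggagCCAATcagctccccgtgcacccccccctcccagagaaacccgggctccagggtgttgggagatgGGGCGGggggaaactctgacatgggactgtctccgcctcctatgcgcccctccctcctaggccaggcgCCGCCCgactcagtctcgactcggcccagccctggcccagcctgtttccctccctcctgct
Nrp2 (chr1:62703067-62703366, plus strand): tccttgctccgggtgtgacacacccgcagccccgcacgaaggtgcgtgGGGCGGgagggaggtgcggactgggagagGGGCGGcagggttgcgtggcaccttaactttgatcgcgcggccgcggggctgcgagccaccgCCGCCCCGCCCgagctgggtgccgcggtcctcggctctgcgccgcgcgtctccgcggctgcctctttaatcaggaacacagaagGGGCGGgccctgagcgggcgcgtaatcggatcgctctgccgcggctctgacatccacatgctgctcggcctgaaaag
Plxnb2 (chr15:89180739-89181038, minus strand): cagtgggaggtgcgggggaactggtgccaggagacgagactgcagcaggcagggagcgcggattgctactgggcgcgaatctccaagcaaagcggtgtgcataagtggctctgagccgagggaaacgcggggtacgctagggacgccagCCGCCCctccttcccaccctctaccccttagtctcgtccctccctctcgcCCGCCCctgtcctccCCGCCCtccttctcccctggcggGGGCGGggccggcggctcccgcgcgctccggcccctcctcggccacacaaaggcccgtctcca
Sema3e (chr5:14025026-14025325, plus strand): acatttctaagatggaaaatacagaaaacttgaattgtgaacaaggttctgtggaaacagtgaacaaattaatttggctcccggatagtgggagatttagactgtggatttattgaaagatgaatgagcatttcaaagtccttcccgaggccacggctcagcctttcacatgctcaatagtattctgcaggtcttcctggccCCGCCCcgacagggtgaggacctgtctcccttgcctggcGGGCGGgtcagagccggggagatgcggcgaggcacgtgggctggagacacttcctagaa
The Nrp2 promoter held 37 CpG sites and 5 GC boxes, of which a pair overlap by 1 base in 1 run of capitals, and the Plxnb2 promoter held 27 and 4. The Ephb4 promoter held 14 CpG sites, 4 GC boxes and 1 CCAAT box. The Sema3e promoter held 11 CpG sites and 2 GC boxes. The promoter table matched 61 of the 71 genes, with 77 promoters. A GC box was present in 54 of the 77 (70.1%), against 35.7% of all 32851 promoters of this length, and the median number of CpG sites was 19 against 7. Promoters of genes that rose in PT held a GC box in 12 of 17 cases and those of genes that fell in 9 of 15. For tested genes that did not pass it was 31 of 41. The set of all promoters was not limited to tested genes. CCAAT was present in 28.6% against 37.4% of all promoters, TATAAA in 2.597% against 13.6%, the AP-1 motif TGANTCA in 3.90% against 7.81% and the CRE motif TGACGTCA in 1.30% against 1.79%. None of the 4 printed promoters held the last 3 motifs. These matches describe letters only.

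Other genes of the guidance pathway, 67 in number and made up of further ligands, receptors and intracellular effectors, were followed beside them. Of 66 tested, 13 rose (19.7%) and 14 fell (21.2%) in PT, against 19.1% and 11.8% of all tested genes. Fes, a tyrosine kinase downstream of plexins that is also known from myeloid cells, stood at 0.58, 0.40 and 0.58 FPKM in sham, 3.35, 2.99 and 1.93 in PT and 2.57, 2.87 and 1.52 with Pushen. It had the largest rise of the 66 tested genes (log2 fold change 2.34 ± 0.29, edgeR adjusted p = 0.000819). Summed markers of microglia and macrophages stood at 603, 494 and 356 FPKM in the PT libraries and 456, 445 and 236 with Pushen. Their order of libraries was that of Fes in PT, and in Pushen libraries 1 and 2 were in the opposite order. Summed markers of astrocytes and of fibroblasts had the order of Fes in both PT and Pushen. Draxin, a secreted netrin antagonist below the filter and not tested, had 67 counts summed over sham and 534 summed over PT. Rras, a small GTPase on which plexins act, rose by 1.09 ± 0.15 on the log2 scale, the filopodial myosin Myo10 by 0.86 ± 0.13 and the plexin-linked exchange factor Farp1 by 0.49 ± 0.07. The kinase Pak3 stood at 11.2, 9.37 and 9.33 FPKM in sham, 4.56, 6.58 and 6.45 in PT and 6.81, 7.34 and 7.55 with Pushen (-0.82 ± 0.15, edgeR adjusted p = 0.00407). Flrt2, a ligand of Unc5 receptors, fell (-0.65 ± 0.13), as did the adhesion molecule L1cam (-0.58 ± 0.13) and the focal adhesion kinase Ptk2 (-0.44 ± 0.09). Without sham library 1, 2 or 3, 5, 5 and 8 of these genes fell, and without PT 1 or 2, 9 fell in each case. With scaling by library size alone 9 fell, and without both PT library 1 and Pushen library 2, 8 fell.

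Set side by side, ligands and their known receptors moved in different combinations in PT. The pairs given here are examples and do not cover every partner. For Sema4d and its receptors Plxnb1 and Plxnb2, the log2 fold changes were 0.49, 0.72 and 1.19, and all 3 passed. For Sema3e and Plxnd1 they were -1.03, which passed, and 0.20, which did not. For Sema7a and Plxnc1 they were -0.34, which passed, and -0.32, which did not. For Efnb2 and Ephb4 they were -0.13, which did not pass, and 1.19, which did. Efna5 and Epha4 fell together, by 0.998 and 0.54 on the log2 scale, and so did Slit2 and Robo2, by 0.47 and 0.57. Epha4 was the only EphA receptor of 6 tested that passed, and its call was lost in several fits with 1 library left out. Robo1 did not pass (0.0007, edgeR adjusted p = 0.996). Ntn1 rose by 0.52 and Unc5c fell by 0.55, while Dcc and the other Unc5 receptors did not pass (log2 fold changes between -0.98 and 0.34). These are levels of RNA in mixed tissue and do not show which cells hold ligand and receptor.

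Pushen was compared with PT to ask whether treatment changed these genes around the infarct. None of the 67 tested guidance genes passed edgeR's test, as 0% of all tested genes did, and DESeq2 and limma also called 0 of them. Over all 16740 tested genes DESeq2 called 48 and limma 0. At an unadjusted p under 0.05 there were 6 of 67 (8.96%), against 6.49% of all tested genes. Log2 fold changes lay between -0.56 for Epha8 and 0.50 for Epha5. In simulated data for this comparison the test recovered 10.9% of 1.5-fold changes, so differences of this size would mostly be missed. The Pushen libraries lay fully above PT for 5 genes, Epha5, Ephb2, Plxnc1, Sema3e and Slit2, or 7.46% against 7.25% of all tested genes. They lay fully below PT for 3, Efnb1, Plxnb1 and Plxnd1, or 4.48% against 5.19% of all tested genes. Both shares are near those of all genes.

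The 6 genes of smallest p in this comparison all had an adjusted p of 0.707, and the smallest unadjusted edgeR p was 0.00835, for Sema3e. Sema3e, with a PT mean of 1.63 ± 0.14 FPKM and a Pushen mean of 2.20 ± 0.27 (SD, n = 3 each), had a log2 difference of 0.42 ± 0.12 (SE). Plxnb1 differed by -0.31 ± 0.11 (16.8 ± 1.82 FPKM in PT and 13.6 ± 1.18 with Pushen). Epha5 stood at 3.51, 3.17 and 3.24 FPKM in sham, 1.61, 2.43 and 2.92 in PT and 3.73, 3.12 and 3.08 with Pushen, a difference of 0.50 ± 0.19 between Pushen and PT. Ephb2 differed by 0.43 ± 0.17, Slit2 by 0.25 ± 0.10 and Robo4 by -0.50 ± 0.21. For all 6 the PT library farthest from Pushen was PT library 1. Without it the log2 differences were 0.38 for Sema3e, -0.22 for Plxnb1, 0.29 for Epha5 and Ephb2, 0.17 for Slit2 and -0.20 for Robo4, each with an adjusted p of 0.987.

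**Figure D4:**
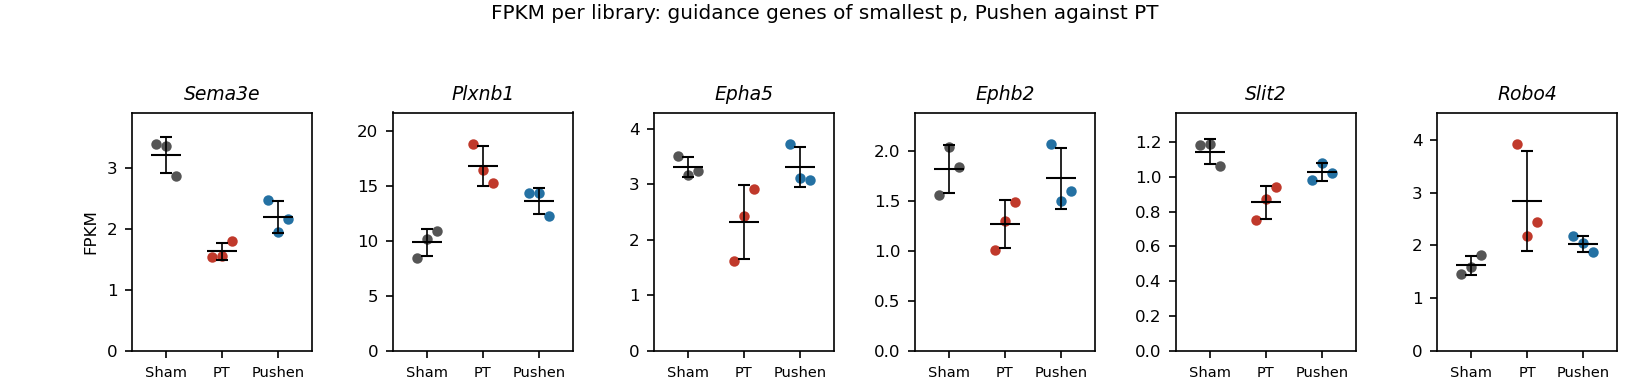
FPKM (y axes, from 0) in each library of sham, PT and Pushen for the 6 guidance genes of smallest p in Pushen against PT, with 1 point per library, a bar at the group mean and SD as whiskers. None passed the test. Sema3e and Plxnb1 have Pushen points between those of PT and sham, while PT and Pushen points of Robo4 meet.

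Pushen was also compared with sham, with the same sham libraries as in the PT comparison. Of the 67 tested guidance genes 10 rose and 4 fell, or 14.9% and 5.97%, against 13.5% and 2.73% of all tested genes. Nrp2 rose by 1.20 ± 0.15 on the log2 scale (edgeR adjusted p = 0.00119), Ephb4 by 0.96 ± 0.17 (0.00544), Plxnb2 by 0.90 ± 0.15 (0.00502) and Nrp1 by 0.85 ± 0.17 (0.00923). Sema3b rose by 1.81 ± 0.42, Plxnb3 by 0.79 ± 0.19, Efna1 by 0.71 ± 0.17, Sema4d by 0.67 ± 0.14, Efnb1 by 0.46 ± 0.12 and Plxnb1 by 0.40 ± 0.11. The genes that fell were Efna5 (-0.78 ± 0.16, edgeR adjusted p = 0.00988), Sema3e (-0.61 ± 0.12, edgeR adjusted p = 0.0102), Unc5c (-0.48 ± 0.12) and Robo2 (-0.43 ± 0.09). Robo4 and Ephb2, which passed in PT, stood at 0.26 ± 0.21 and -0.14 ± 0.17 against sham with Pushen and did not pass, but neither passed the direct test of Pushen against PT. The same held for Efna3, Epha4, Ephb6, Ntn1, Plxna2, Sema4b, Sema4f, Sema4g, Sema7a and Slit2. Over all tested genes, 5176 were called in PT against sham and 2718 in Pushen against sham. The calls of Sema3b, Plxnb3, Efna1, Sema4d, Efnb1, Plxnb1, Unc5c and Robo2 were each lost without sham library 1. Robo2, Efna1, Sema3b, Sema4d, Plxnb1 and Plxnb3 were also lost without sham library 2, and Efna1, Efnb1 and Unc5c without sham library 3. Leaving out Pushen library 1 ended the calls of Efna1, Efnb1, Plxnb1, Plxnb3, Sema4d and Unc5c, and Pushen library 2 those of Efna1, Efnb1, Plxnb1, Sema3b and Unc5c. Efnb1 and Plxnb3 also lost theirs without Pushen library 3, and Efnb1 and Plxnb1 without PT library 2, and where a call was lost the adjusted p lay between 0.0509 and 0.130. The number that rose was 4 without sham library 1, 5 without sham library 2 or Pushen library 1, and 6 without Pushen library 2. The number that fell was 2 without sham library 1, 7 without PT library 1 and 8 without Pushen library 3.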

How the data were processed

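RNA-seq libraries (TruSeq, total RNA) of 9 samples in 3 groups of 3 were used. The deposited table holds read counts per gene and FPKM values side by side. The submitters' processing notes name Bowtie 0.12.2 and the build mm8, while the table's coordinates match GRCm38 for 94.2% of shared gene IDs. For the counting tool and its use of strand, the label fields hold no name. FPKM, as deposited by the authors, is used to give levels, and deposited counts to test. Genes averaging 0.5 FPKM or more across libraries entered 1 fit of the 3 groups with TMM scaling and edgeR 4.0.16's quasi-likelihood test. Benjamini-Hochberg adjustment ran over all 16740 genes, with calls at an adjusted p under 0.05. SE is the size of the log2 fold change over the square root of F. DESeq2 1.42.0, limma 3.58.1 (log2 of FPKM plus 0.1 or 1), other scalings and filters, a replicate block and leaving out libraries were tried, and quantile normalization was added after the data were seen. The procedure was tested on simulated data of 16740 genes. For PT against sham it recovered 14.0% of 1.5-fold, 61.4% of 2-fold and 89.0% of 4-fold changes, with 1 false call. For Pushen against PT the shares were 10.9%, 61.0% and 86.4%, with 17 false calls. For Pushen against sham they were 11.4%, 59.0% and 85.5%, with 6 false calls. Most 1.5-fold changes were therefore missed in the simulated data. For PT against sham those data held 57, 70 and 73 changed genes of these sizes, while 5176 genes were called in the real data. Adjusted p-values depend on how many genes change, so these shares need not hold for the comparisons with sham. The members, gene lists and tests were chosen with earlier results of these data known. Genes named are, per family, up to 4 of smallest p in PT against sham and the 2 highest in mean FPKM, all called with a log2 fold change of at least 1 in size, and the 6 of smallest p in Pushen against PT. Of the other guidance genes, the 4 of smallest p in each direction are named, and further genes are named with a level or fold change. All 18 value columns were used. No libraries of a group were alike within sampling noise (chi-square per gene 47.1 to 167).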

Additional observations from a re-analysis of the deposited data

How the results depend on the processing

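Among the guidance genes named by the rule above (by p, level or size of change), none changed direction with a call under any alternative. This check was made across all alternatives for those genes only. In PT against sham, the 14 that rose became 9 after quantile normalization and 9 without both PT library 1 and Pushen library 2, and leaving out 1 library gave 8 to 14. The 12 that fell ranged from 7 to 17 when 1 library was left out. With library size only and in limma with either pseudocount 8 fell, and in DESeq2 17 fell. Quantile normalization moved the share of all calls that were higher from 61.9% to 41.9% in PT against sham and from 83.2% to 60.1% in Pushen against sham, and the cause was not tested. In Pushen against sham, the 10 that rose ranged from 4 to 12 and the 4 that fell from 2 to 8 when 1 library was left out, and 7 fell when only these 2 groups were fitted. In Pushen against PT, 0 were called under every alternative.

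Of the other guidance genes, the 14 that fell in PT became 9 with library size only and 8 without both libraries, and 5 to 21 with 1 library left out. In Pushen against sham, the 9 that rose became 5 without both libraries and ranged from 5 to 11 with 1 left out. The 4 that fell became 2 with library size only, without a filter, with a replicate block and in limma with either pseudocount, 11 when only the 2 groups were fitted, and 0 to 9 with 1 library left out. The causes were not tested.

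Samples of the same number did not deviate together (correlations of -0.225 to 0.0846). With the replicate number as a block, 13 guidance genes rose and 9 fell in PT against sham, 0 were called in Pushen against PT, and 7 rose and 3 fell in Pushen against sham. The block gave 11 and 10 of the other guidance genes in PT against sham and 7 and 2 in Pushen against sham.

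Depth limits what can be said of Efna4 and Epha1, which had 42 and 48 counts over the sham libraries.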
